A study of Mus musculus with 19 samples.

Results

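Gdf15, Fgf21, Atf4, Atf3, Ddit3, Trib3, Xbp1, Hspa5, Herpud1 and Cdkn1a are genes of the integrated stress response, of endoplasmic reticulum (ER) stress and of p53, together with the stress hormones that these pathways control. They were named as a set, 10 of the 35498 genes in the files, and were chosen by name on measured values of these same libraries, the fold changes and CPM levels between the treatment groups, which were already known. Their levels and differences are therefore given as a description, without a test of their own. All 10 passed the filter on low counts. The 19 libraries for bulk RNA sequencing came from liver of male mice, with the genotype given in the labels as C57Bl/J6, at 24 weeks. Treatments were CTRL, CTRL+beta-Glucan and WSD, with 5 libraries in each, and WSD+beta-Glucan, with 4. Oat beta-glucan is a soluble cereal fibre, which the series title ties to the diet and to non-alcoholic fatty liver. WSD is used as a group name only, because it is not spelled out. Whether libraries came from separate mice is not stated, so p-values measure the spread between these libraries, which may be technical.

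Cells answer misfolded ER proteins, amino acid shortage and oxidative damage by phosphorylating the translation factor eIF2, which slows protein synthesis while raising the translation of ATF4. ATF4 and its partners CHOP (Ddit3) and ATF3 then drive genes of amino acid supply, and also Trib3, a pseudokinase that feeds back on this arm. ER stress also acts through the sensors IRE1, which splices Xbp1 mRNA, and ATF6, both of which raise chaperones such as BiP (Hspa5) and degradation factors such as Herpud1. Gdf15 encodes a circulating hormone that lowers appetite through the hindbrain receptor GFRAL, and Fgf21 encodes a liver hormone of fasting and nutrient stress that signals through FGF receptors with beta-Klotho (Klb). Cdkn1a encodes p21, the p53 target that arrests the cell cycle.

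The promoters of 4 of the genes are shown because they carry, in these windows, the elements by which the pathways are known to act. RefSeq windows of 300 bases (build GRCm38.p6, 250 bases before to the first bases after the start) were found for 10 of the 10 genes, 12 windows in all. Capitals mark the C/EBP-ATF element TTGCATCA, the ER stress response element (CCAAT and CCACG with 9 bases between them) and the ER stress response element II (ATTGG and CCACG with 1 base between them), each searched on both strands.

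Fgf21, chr7:45615521-45615640, minus strand: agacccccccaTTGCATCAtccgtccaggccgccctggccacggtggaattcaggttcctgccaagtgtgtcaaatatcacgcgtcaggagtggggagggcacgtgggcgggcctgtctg
Atf3, chr1:191183364-191183483, minus strand: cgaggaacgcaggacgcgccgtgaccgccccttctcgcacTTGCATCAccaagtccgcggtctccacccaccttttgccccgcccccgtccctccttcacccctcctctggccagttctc
Herpud1, chr8:94386279-94386398, plus strand: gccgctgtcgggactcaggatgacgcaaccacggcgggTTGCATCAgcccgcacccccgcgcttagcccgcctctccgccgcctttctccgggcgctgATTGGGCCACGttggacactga
Hspa5, chr2:34772020-34772049, plus strand: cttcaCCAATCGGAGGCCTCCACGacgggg

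TTGCATCA began 139 bases before the start of Fgf21, 110 before that of Atf3 and 112 before that of Herpud1, and 0.895% of all 32851 windows held it. The ER stress response element began 65 bases before the start of Hspa5 and stood in 0.119% of windows. Element II began 52 bases before the start of Herpud1 and stood in 0.0365%. The Hspa5 stretch lies inside the first exon of a longer annotated transcript. A match describes letters only, and a window without one says nothing about the factor. Of the 3 genes with TTGCATCA, Atf3 was higher in WSD than in CTRL without overlap, whereas the libraries of Fgf21 and of Herpud1 overlapped, as given next.

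Depth was 17253823 to 23450232 estimated reads per library. Values below are CPM (counts scaled to a common library size) scaled by TMM, a trimmed mean of ratios between libraries, and differences are log2 fold changes with their SE from edgeR. The TMM factors differed with the diet, 0.829 to 0.896 in CTRL and 1.14 to 1.27 in WSD. With scaling by the library total alone, the median log2 fold change of all 13594 tested genes moved from -0.04 to 0.43 for WSD against CTRL, and from 0.01 to -0.14 for WSD+beta-Glucan against WSD. Small changes between diets are hence relative to the scaling. Along the second principal component of log2 CPM (6.68% of the variance), the library titled 37 (WSD+beta-Glucan replicate 1) lay at 18.2 against -20.3 to -6.9 in the rest of its group. Those titled 39 and 40 (replicates 1 and 2 of CTRL+beta-Glucan) lay at 51.8 and 18.2 against -15.9 to 0.9. All 3 are beta-glucan libraries with the lowest sample numbers in their titles, S1 to S3, and a WSD library is also titled S2; whether they were sequenced apart from the rest is not stated and was not tested. Where a direction or a call turns without these 3, the value without them is given as well. CTRL replicates 1 and 2, which stay in that fit, lay at 8.1 and 10.3 on this component, against -21.6 to -9.6 in the other CTRL libraries. In bulk tissue, fewer cells of a type and less RNA per cell cannot be told apart.

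The hormone Gdf15 (ENSMUSG00000038508) was the member whose position among the 10 moved most with the diet. Its CTRL libraries read 3.77, 3.23, 4.37, 2.78 and 1.60 CPM and those of CTRL+beta-Glucan 7.00, 6.21, 9.97, 3.57 and 4.55 CPM. The WSD libraries read 43.9, 33.9, 29.1, 32.2 and 29.8 CPM, and those of WSD+beta-Glucan 18.99, 14.3, 25.9 and 16.1 CPM. Every WSD library stood above every other library, and every WSD+beta-Glucan library stood between WSD and the CTRL groups. The means were 3.15 ± 1.05 CPM in CTRL (SD, n = 5), 6.26 ± 2.47 in CTRL+beta-Glucan (n = 5), 33.8 ± 5.98 in WSD (n = 5) and 18.8 ± 5.10 in WSD+beta-Glucan (n = 4). The log2 fold change was 3.43 ± 0.27 (SE) for WSD against CTRL, a 10.8-fold difference, and -0.84 ± 0.25 for WSD+beta-Glucan against WSD. Between CTRL+beta-Glucan and CTRL it was 0.98 ± 0.28, with overlapping libraries. So beta-glucan went with a lower Gdf15 level beside WSD and a higher one beside CTRL, and the difference between both effects was -1.83 ± 0.37, the largest of the 10.

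Fgf21 (ENSMUSG00000030827) had SDs of 8.88 to 11.2 CPM around group means of 15.2 to 27.7 CPM. Its libraries read 11.1, 9.81, 33.8, 11.5 and 9.84 CPM in CTRL and 15.6, 14.2, 41.5, 19.9 and 27.4 CPM in CTRL+beta-Glucan. In WSD they read 37.5, 15.4, 22.0, 30.2 and 33.3 CPM, and in WSD+beta-Glucan 6.53, 19.96, 30.2 and 10.8 CPM. All 4 groups overlapped, and CTRL replicate 3 was about as high as the upper WSD libraries. The other CTRL libraries, at 9.81 to 11.5 CPM, lay below every WSD library. WSD against CTRL gave a log2 fold change of 0.86 ± 0.45, or 1.39 without CTRL replicate 3. For WSD+beta-Glucan against WSD it was -0.71 ± 0.47, and for CTRL+beta-Glucan against CTRL 0.64 ± 0.45; without the libraries titled 37, 39 and 40 these were -0.44 and 0.96.

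**Figure D1:**
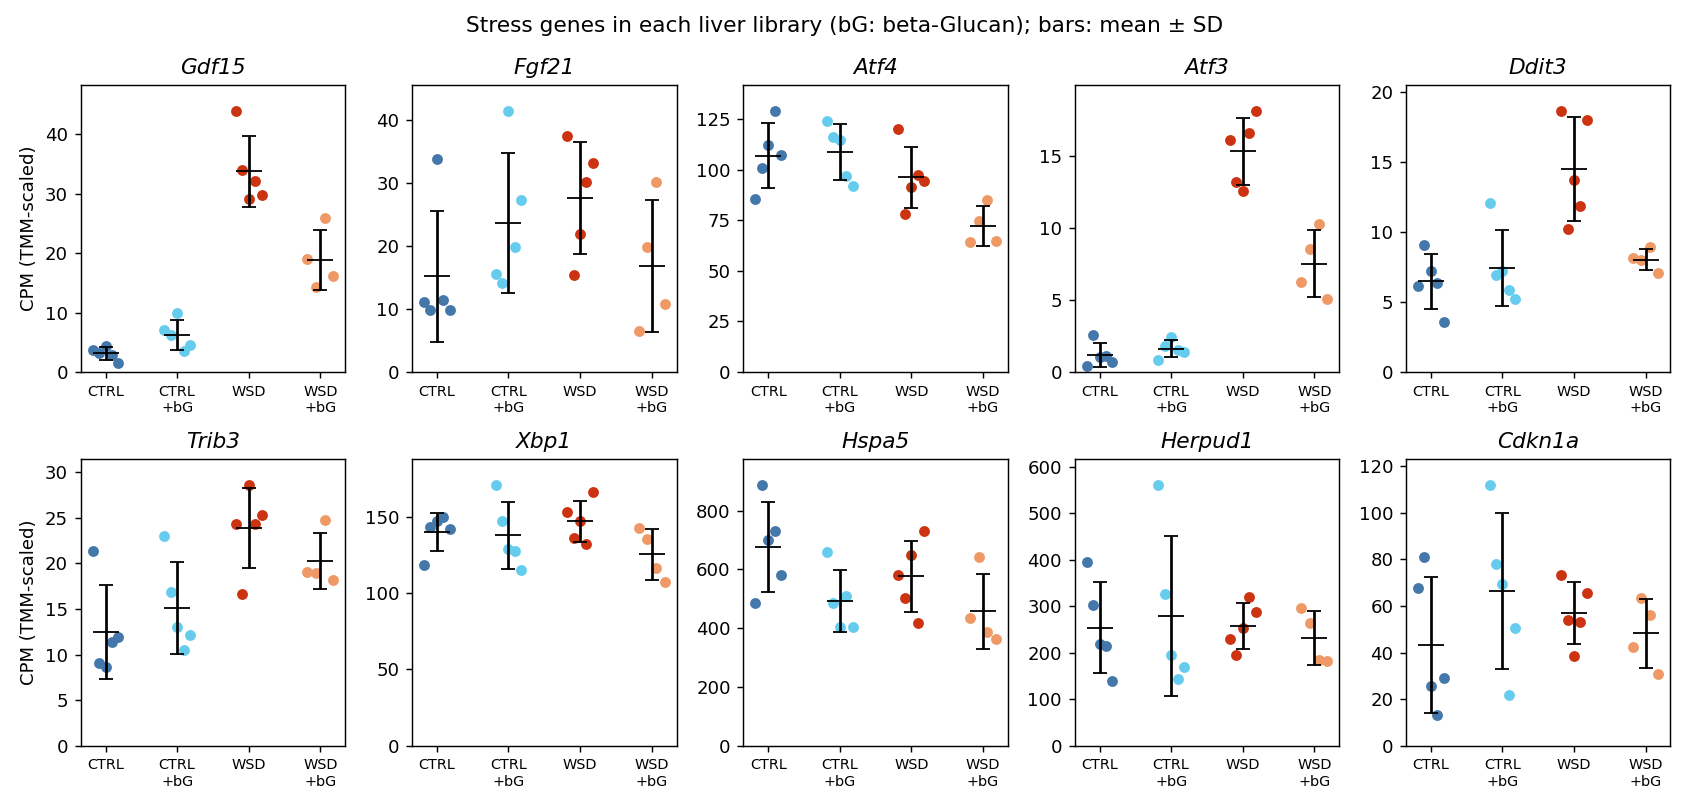
CPM of each gene (vertical axes, starting at 0) in each of the 19 libraries (points) by group, with the mean and SD as bars; bG stands for beta-Glucan. Gdf15, Atf3 and Ddit3 are higher in every WSD library than in every CTRL library, while Xbp1, Hspa5 and Herpud1 overlap between these groups.

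Among the transcription factors, Atf4 (ENSMUSG00000042406), whose protein is controlled mainly at translation, did not follow Atf3 and Ddit3. It read 85.4, 101, 112, 129 and 107 CPM in CTRL and 124, 116, 115, 96.9 and 91.8 CPM in CTRL+beta-Glucan. It read 120, 78.3, 91.5, 97.5 and 94.5 CPM in WSD and 64.4, 74.8, 85.1 and 64.6 CPM in WSD+beta-Glucan. The CTRL and WSD libraries overlapped, and the WSD+beta-Glucan libraries all lay below those of CTRL+beta-Glucan. WSD against CTRL gave a log2 fold change of -0.15 ± 0.12, but 0.32 with scaling by library total. It was -0.42 ± 0.13 for WSD+beta-Glucan against WSD.

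Atf3 (ENSMUSG00000026628), a stress-induced repressor of low level in CTRL, read 0.450, 2.56, 1.05, 1.12 and 0.669 CPM there. It read 0.866, 1.80, 2.46, 1.53 and 1.39 CPM in CTRL+beta-Glucan. The WSD libraries read 16.1, 13.2, 12.6, 16.6 and 18.1 CPM and those of WSD+beta-Glucan 6.26, 8.54, 10.2 and 5.09 CPM. As for Gdf15, the WSD+beta-Glucan libraries lay below all of WSD and above all of CTRL+beta-Glucan. Atf3 had a log2 fold change of 3.72 ± 0.33 for WSD against CTRL, -1.02 ± 0.29 for WSD+beta-Glucan against WSD and 0.48 ± 0.36 for CTRL+beta-Glucan against CTRL.

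Ddit3 (ENSMUSG00000025408), which encodes the pro-apoptotic factor CHOP, read 6.13, 9.08, 7.23, 6.39 and 3.55 CPM in CTRL and 12.1, 6.95, 7.21, 5.89 and 5.19 CPM in CTRL+beta-Glucan. In WSD it read 18.7, 10.2, 13.7, 11.9 and 18.1 CPM, and in WSD+beta-Glucan 8.18, 8.03, 8.91 and 7.08 CPM. Its WSD+beta-Glucan libraries lay within the range of both CTRL groups, unlike those of Gdf15 and Atf3. For Ddit3 the log2 fold change was 1.17 ± 0.23 for WSD against CTRL, -0.85 ± 0.24 for WSD+beta-Glucan against WSD and 0.12 ± 0.25 for WSD+beta-Glucan against CTRL+beta-Glucan.

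Trib3 (ENSMUSG00000032715), the target through which CHOP feeds back on this arm, read 21.4, 9.08, 8.69, 11.4 and 11.9 CPM in CTRL and 23.02, 16.8, 13.03, 10.5 and 12.1 CPM in CTRL+beta-Glucan. It read 24.3, 16.6, 28.6, 24.3 and 25.2 CPM in WSD and 19.04, 18.98, 24.8 and 18.1 CPM in WSD+beta-Glucan. Replicate 1 of CTRL stood in the range of the WSD libraries, so these groups overlapped. The log2 fold change was 0.93 ± 0.24 for WSD against CTRL and -0.23 ± 0.24 for WSD+beta-Glucan against WSD.

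The ER stress genes had overlapping CTRL and WSD libraries. Xbp1 (ENSMUSG00000020484), whose product drives secretory pathway genes, read 119, 143, 147, 150 and 142 CPM in CTRL and 153, 136, 147, 132 and 166 CPM in WSD. It read 171, 147, 129, 127 and 115 CPM in CTRL+beta-Glucan and 143, 135, 116 and 107 CPM in WSD+beta-Glucan. The log2 fold change for WSD against CTRL was 0.07 ± 0.11, and 0.54 with scaling by library total. None of its 4 annotated transcripts has an intron shorter than 300 bases, so the short IRE1-spliced form is not counted apart from the unspliced one.

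Hspa5 (ENSMUSG00000026864), the ER chaperone BiP and the most abundant of the 10, read 487, 888, 699, 732 and 581 CPM in CTRL and 660, 486, 405, 511 and 403 CPM in CTRL+beta-Glucan. It read 583, 504, 648, 418 and 730 CPM in WSD and 435, 641, 389 and 363 CPM in WSD+beta-Glucan. All groups overlapped. The log2 fold change was -0.23 ± 0.19 for WSD against CTRL (0.24 with scaling by library total), -0.34 ± 0.20 for WSD+beta-Glucan against WSD and -0.46 ± 0.19 for CTRL+beta-Glucan against CTRL.

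Herpud1 (ENSMUSG00000031770), an ER membrane protein of ER-associated degradation, read 395, 302, 219, 214 and 138 CPM in CTRL and 230, 195, 254, 320 and 289 CPM in WSD. It read 561, 326, 194, 143 and 170 CPM in CTRL+beta-Glucan and 296, 263, 185 and 182 CPM in WSD+beta-Glucan. The highest CTRL+beta-Glucan libraries were replicates 1 and 2, which are among those that stood apart. The log2 fold change of Herpud1 for CTRL+beta-Glucan against CTRL was 0.14 ± 0.34 with them and -0.59 without the libraries titled 37, 39 and 40. The highest CTRL libraries were also replicates 1 and 2, and that fit keeps them, so the removal is one-sided. For WSD against CTRL the log2 fold change was 0.02 ± 0.33, and 0.47 with scaling by library total.

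Cdkn1a (ENSMUSG00000023067), the cell cycle inhibitor p21, varied widely within CTRL. It read 67.8, 80.9, 25.7, 13.3 and 29.1 CPM there and 112, 77.9, 69.2, 21.6 and 50.6 CPM in CTRL+beta-Glucan. It read 73.4, 54.1, 38.3, 53.01 and 65.7 CPM in WSD and 42.2, 63.6, 56.2 and 30.8 CPM in WSD+beta-Glucan. Libraries of all groups overlapped, and the log2 fold change for WSD against CTRL was 0.39 ± 0.45. It was 0.16 without CTRL replicate 4, 0.61 without CTRL replicate 1, 0.74 without CTRL replicate 2 and 0.86 with scaling by library total. For CTRL+beta-Glucan against CTRL it was 0.61 ± 0.45, and 0.11 without the libraries titled 37, 39 and 40. That fit keeps CTRL replicates 1 and 2, the highest CTRL libraries of Cdkn1a.

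**Figure D2:**
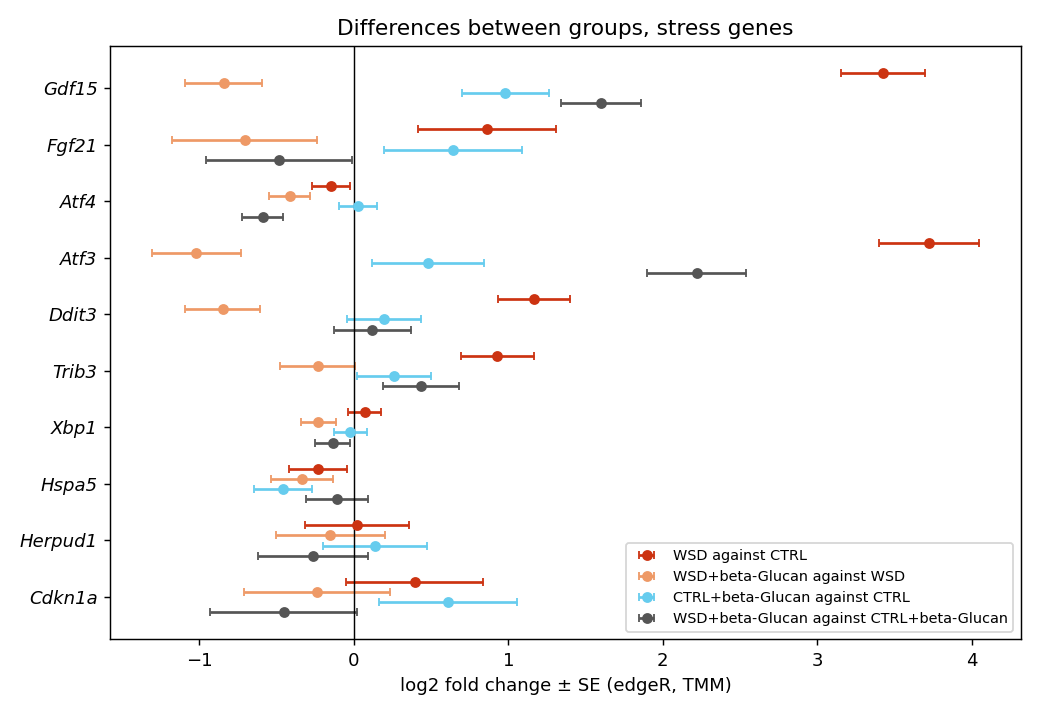
Log2 fold change with its SE (horizontal axis) for each gene in 4 comparisons (colours). The WSD+beta-Glucan against WSD values (orange) lie below 0 for all 10 genes, from -1.02 for Atf3 to -0.15 for Herpud1.

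For WSD against CTRL, 4 of the 10 genes (Gdf15, Atf3, Ddit3 and Trib3) lay above the edgeR threshold, an adjusted p under 0.05, where 53% of all tested genes passed (26% higher and 27.1% lower). Leaving out each library in turn gave 4 to 5 higher calls among the 10, and 3180 to 3606 over all tested genes. With scaling by library total 7 of the 10 passed, all higher, adding Fgf21, Atf4 and Xbp1. Of all 13594 tested genes, 7874 were called higher and 617 lower with that scaling. Groups did not overlap for Gdf15, Atf3 and Ddit3, as for 38.4% of tested genes (20% higher and 18.4% lower). For WSD+beta-Glucan against WSD, 0 of 10 passed in edgeR, where 0.39% of all genes did (0.0883% higher and 0.302% lower). An unadjusted edgeR p under 0.05 was reached by 4 of the 10 and by 2118 of all 13594 tested genes. DESeq2 put Gdf15, Atf3, Atf4 and Ddit3 past its threshold, and limma-voom put Gdf15, Atf3 and Ddit3 past it, as scaling by library total did for Atf4 and Ddit3, all of them lower. Of all 13594 tested genes, DESeq2 called 94 higher and 342 lower, limma-voom 61 and 366, and scaling by library total 11 and 283. All 10 values lay below 0, with a median of -0.38 against 0.01 over all genes, and the groups did not overlap for Gdf15, Atf3 and Ddit3, as for 7.42% of tested genes (2.59% higher and 4.83% lower). This comparison and that with CTRL share the WSD libraries, so a high WSD value enters both. For CTRL+beta-Glucan against CTRL, 0 of 10 passed in edgeR, DESeq2 and limma-voom (0.00736% of all genes in edgeR). An unadjusted edgeR p under 0.05 was reached by 2 of 10 and by 775 of all 13594 tested genes. Of the 10 values, 8 lay above 0. Without the libraries titled 37, 39 and 40 only those of Gdf15, Fgf21, Atf3 and Cdkn1a did. No member's groups were apart there, as they were for 0.486% of tested genes (0.28% higher and 0.206% lower). For WSD+beta-Glucan against CTRL+beta-Glucan, where 34.3% of tested genes passed (19.1% higher and 15.2% lower), Gdf15 (1.60 ± 0.26) and Atf3 (2.22 ± 0.32) were higher and Atf4 (-0.59 ± 0.13) lower past the threshold, and the groups of these 3 did not overlap, as for 25.2% of tested genes (14.4% higher and 10.7% lower). Without the libraries titled 37, 39 and 40, the value of Atf4 in this comparison was -0.43 and no longer past the threshold, while Trib3 was at 0.81 and past it, in place of 0.43 ± 0.25. Cdkn1a (-0.46 ± 0.47), Herpud1 (-0.27 ± 0.36) and Hspa5 (-0.11 ± 0.20) turned to 0.10, 0.32 and 0.09 without them. When the 2 effects of beta-glucan were compared with each other, 0 of 10 passed in edgeR (0.00736% of all genes) and limma-voom. DESeq2 put 1 of the 10 past its threshold, lower, and over all genes 14 higher and 125 lower. An unadjusted edgeR p under 0.05 was reached by 4 of the 10 and by 1865 of all 13594 tested genes. Since the members were picked with these results known, nothing is read from these counts.

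**Figure D3:**
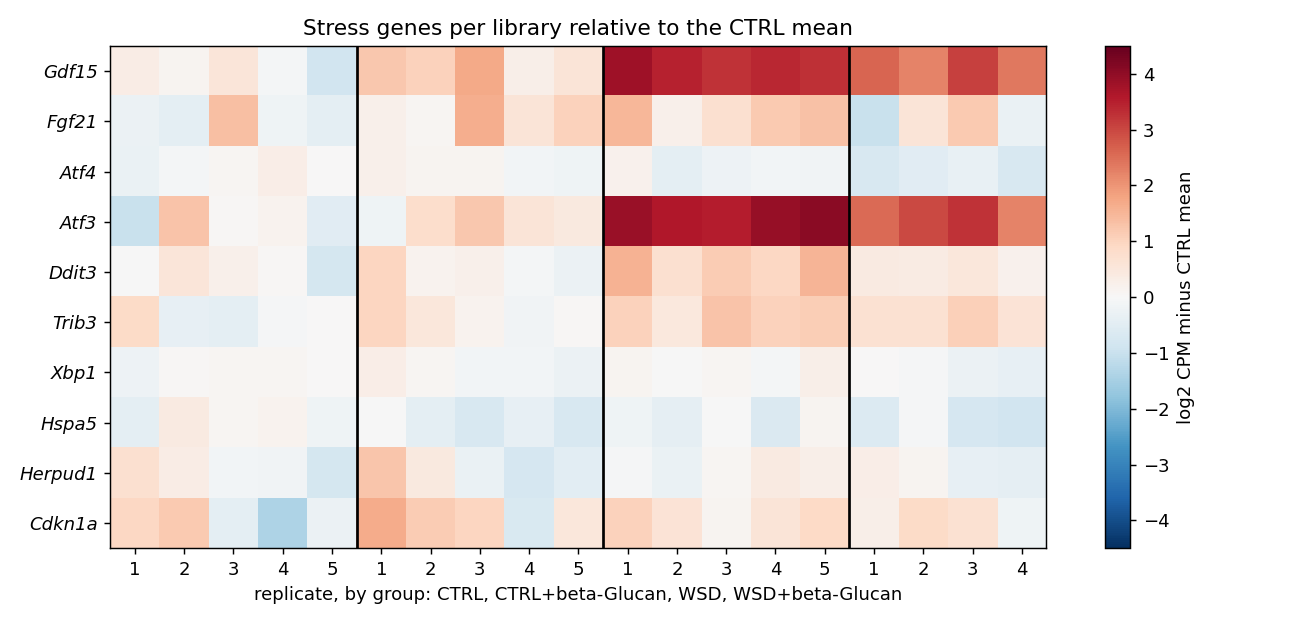
Log2 CPM of each gene (rows) in each library (columns, by group) minus its CTRL mean, red for higher and blue for lower. The red blocks of Gdf15 and Atf3 are deepest in WSD and paler in WSD+beta-Glucan; Xbp1 stays near 0 in all groups.

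On the length-corrected TPM scale, which allows levels of different genes to be compared, the CTRL order ran from Hspa5 (366 ± 90.4 TPM, SD, n = 5) and Herpud1 (160 ± 65.1) through Xbp1, Atf4, Cdkn1a, Fgf21, Ddit3 and Trib3 to Gdf15 (3.45 ± 1.21) and Atf3 (0.652 ± 0.468). Libraries of neighbours in this order overlapped except between Hspa5 and Herpud1, Atf4 and Cdkn1a, Trib3 and Gdf15, and Gdf15 and Atf3. In WSD, Gdf15 moved from rank 9 to rank 5 (51.3 ± 8.47 TPM), beside Fgf21 (50.8 ± 15.6 TPM), and Atf3 stayed last.

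The split of a gene's reads between its transcripts was not used to choose the genes and was tested for 6 of them in 3 comparisons. With 18 tests, a single complete separation of groups, whose exact p is 0.00794 for 5 against 5 libraries and 0.0159 for 4 against 5, could not pass the adjustment. The exact permutation tests gave a smallest Benjamini-Hochberg adjusted p of 0.619, and the smallest exact p was 0.0556 (Cdkn1a-201 held 95.3 ± 1.73% of Cdkn1a reads in CTRL+beta-Glucan and 97.3 ± 1.41% in CTRL, n = 5 each). For Atf3, Salmon gave all reads of a library either to Atf3-201 or to Atf3-203, never to both. Atf3-203 took them in 3 of 5 CTRL and 2 of 5 CTRL+beta-Glucan libraries and in 0 of 9 WSD and WSD+beta-Glucan libraries. The CTRL libraries held 8 to 42 Atf3 reads each, against 291 to 446 in WSD, so this split rests on few reads.

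Listed genes of the pathway beyond the 10 were tested in the same fit, 191 of them in 10 lists. The lists, too, were chosen with earlier results of these data known. Their counts and p-values are therefore a description, not a test set beforehand. For WSD against CTRL, 40 rose and 73 fell at an adjusted p under 0.05 (edgeR). Over all tested genes 53% passed, 26% higher and 27.1% lower, to be set beside the count of each list. With scaling by library total, 97 rose and 12 fell, as did 7874 and 617 of all 13594 tested genes. Relative to the median of all genes, the median of the p53 targets was 0.77 and that of the ER-associated degradation genes -0.32 in either scaling. The scaling shifts all genes by nearly the same amount, so the likeness between scalings follows from its construction.

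Among 41 ATF4 and CHOP targets, 16 rose and 12 fell for WSD against CTRL, with a median log2 fold change of 0.22 against -0.04 over all genes (28 and 2 with scaling by library total). Aldh18a1, a proline synthesis enzyme, rose from 0.473 ± 0.131 to 3.76 ± 0.472 CPM (log2 fold change 2.98 ± 0.31, adjusted p = 2.25e-07, edgeR). Nupr1, a stress-induced chromatin protein, rose by 3.05 ± 0.40, Chac1, a glutathione-degrading enzyme, by 2.58 ± 0.48 and Tnfrsf10b, a death receptor, by 1.99 ± 0.29. Asns, the asparagine synthetase (-1.84 ± 0.70), and Cth, a cysteine synthesis enzyme (-1.63 ± 0.26), fell, although the adjusted p of Asns ran from 0.00732 to 0.105 over 27 alternatives. Further targets were named after their values were seen. The serine synthesis gene Psat1 (1.96), the folate enzyme Mthfd2 (1.84) and the proline synthesis enzyme Pycr1 (1.39) rose. The risen targets named so far were of low level, with CTRL means from 0.186 CPM (Pycr1) to 1.30 CPM (Chac1). Pycr1 reached only 0.49 CPM in WSD. Among those that fell, Cth went from 630 to 203 CPM and Asns from 4.04 to 1.12 CPM. The tRNA synthetases Tars (-0.55), Aars (-0.38, from 271 to 209 CPM) and Mars (-0.34) fell. Sars (0.31) and Wars (0.40), also tRNA synthetases, rose, so this class did not move together.

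The p53 targets rose most often, 16 of 23, with 1 lower, and a median of 0.73 (20 and 0 with scaling by library total). Gadd45a, a growth arrest gene, rose by 2.70 ± 0.31, Phlda3, an inhibitor of AKT, by 2.85 ± 0.37 and Ckap2, a spindle protein, by 2.56 ± 0.37 (adjusted p = 9.8e-06, edgeR). Cdkn1a, the classical target, was at 0.39 ± 0.45, and Mdm2, which encodes the ligase that degrades p53, was at 0.15 ± 0.07 (adjusted p = 0.0924, edgeR). Mdm2 passed in 5 of 27 alternatives, with values from 0.19 to 0.61 and the lowest adjusted p, 3.5e-05, with scaling by library total. Phlda3 was at 0.833 ± 0.519 CPM in CTRL and 5.99 ± 1.53 CPM in WSD (n = 5 each).

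The ER lists had more lower than higher calls. Of 24 ER chaperones and folding enzymes, 0 rose and 11 fell (3 and 1 with scaling by library total), among them Pdia5 (-0.85 ± 0.10) and Selenos (-0.53 ± 0.10). Of 20 ER-associated degradation genes, 0 rose and 13 fell (7 and 3 with that scaling), including Nploc4 (-0.90 ± 0.12) and Vcp, the ATPase that extracts proteins from the ER (-0.50 ± 0.07). Of 24 secretory genes driven by XBP1, 1 rose and 9 fell (14 and 1 with that scaling), among them Srpr, the signal recognition particle receptor (-0.76 ± 0.09). The calls of these 3 lists thus moved with the scaling, as did those of all tested genes. Over all genes, 3528 rose and 3680 fell under TMM, and 7874 rose and 617 fell with scaling by library total. Canx, Sec62 and Sec63, which fell under TMM, had values slightly above 0 without it.

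Among the sensors, Eif2ak3, which encodes the kinase PERK, rose from 12.03 ± 2.54 to 20.6 ± 3.27 CPM (0.78 ± 0.15, adjusted p = 0.000168, edgeR). Creb3l3, a liver ER-bound factor that activates Fgf21, fell by 0.79 ± 0.09 and Creb3l1 rose by 2.26 ± 0.28. Atf6 (-0.11 ± 0.10), Ern1, which encodes IRE1 (-0.26 ± 0.17), and Eif2ak4, the amino acid sensor GCN2 (0.05 ± 0.14), did not pass under TMM. With scaling by library total, Atf6 (0.36, adjusted p = 0.00664, edgeR) and Eif2ak4 (0.52, adjusted p = 0.0086, edgeR) passed as higher, and Ern1 was at 0.21. The 14 eIF2 kinases, phosphatases and exchange factors had 1 higher and 6 lower call, 8 and 1 with scaling by library total.

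Of 12 tested receptors and Fgf21 regulators, 2 rose and 8 fell (3 and 3 with scaling by library total). Klb, the FGF21 co-receptor, fell from 29.2 ± 6.11 to 13.4 ± 2.90 CPM (-1.13 ± 0.22), Ppara, the fasting receptor that activates Fgf21, fell by 1.02 ± 0.26 and Ppargc1a fell by 1.21 ± 0.25 (adjusted p = 0.000407, edgeR). Fgfr4, the main hepatic FGF receptor, fell by 0.36 ± 0.12, though it was 0.10 above 0 with scaling by library total. Gfral, the GDF15 receptor, had 0 reads in all 19 libraries, which at 3 counts in the smallest library allows up to 0.174 CPM without TMM, and its co-receptor Ret had 4 reads over CTRL, 0 over CTRL+beta-Glucan, 2 over WSD and 21 over WSD+beta-Glucan, where 1 library reached 0.892 CPM. Of 12 mitochondrial chaperones and proteases 1 rose and 7 fell (5 and 1 with that scaling), and of 14 cytosolic heat shock genes 1 rose (Hspb1, 1.19 ± 0.20) and 5 fell (4 and 0).

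**Figure D4:**
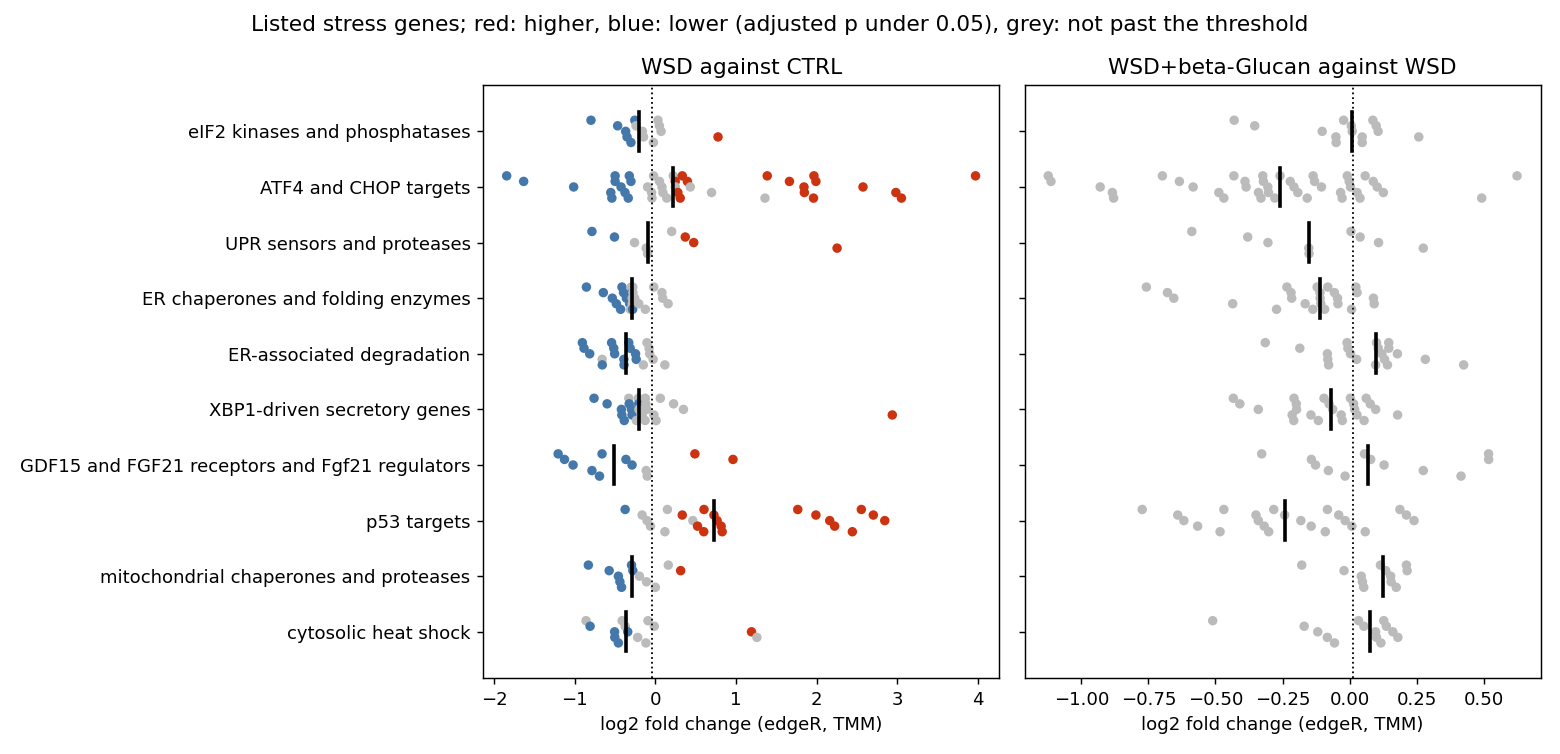
Log2 fold change of every tested listed gene (points; rows are lists) for WSD against CTRL on the left and WSD+beta-Glucan against WSD on the right, with list medians as black bars and the median of all genes as a dotted line. On the left the p53 targets have 16 higher calls in red and ER-associated degradation has 13 lower calls in blue; on the right no gene is coloured, and horizontal scales differ.

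For WSD+beta-Glucan against WSD, 0 of the 191 listed genes passed in edgeR, where 0.39% of all genes did. An unadjusted edgeR p under 0.05 was reached by 30 of the 191 and by 2118 of all 13594 tested genes, a like share. DESeq2 called 1 higher and 3 lower (94 and 342 over all genes) and limma-voom 1 higher and 2 lower (61 and 366). The ATF4 and CHOP targets had a median of -0.26 and the p53 targets of -0.24, against 0.01 for all genes, and 9 of 41 and 5 of 23 had values above 0. Gadd45a was at 8.43 ± 2.48 CPM in WSD and 5.5 ± 1.26 CPM in WSD+beta-Glucan (n = 5 and n = 4). Nupr1 was at 6.40 ± 2.83 and 3.34 ± 1.81 CPM, and Chac1 at 7.78 ± 2.67 and 4.23 ± 0.593 CPM. All of these were higher in WSD than in CTRL, and both comparisons share the WSD libraries, so a high WSD value enters both. Other genes raised in WSD did not come down. Vldlr was at 6.35 ± 1.43 CPM in WSD and 8.93 ± 2.11 CPM in WSD+beta-Glucan, and Hspb1 at 64.5 ± 11.1 and 65.9 ± 22.0 CPM. For CTRL+beta-Glucan against CTRL, 0 of 191 passed in edgeR, DESeq2 and limma-voom. An unadjusted edgeR p under 0.05 was reached by 16 of them and by 775 of all 13594 tested genes. For WSD+beta-Glucan against CTRL+beta-Glucan, 24 rose and 44 fell, where 19.1% of all genes rose and 15.2% fell. With scaling by library total 55 rose and 7 fell (5137 and 385 over all genes). Without the libraries titled 37, 39 and 40, 25 rose and 21 fell (2174 and 1240 over all genes). Set against each other, the 2 beta-glucan effects gave 0 calls among these genes in edgeR, DESeq2 and limma-voom (0.00736% of all genes passed in edgeR). An unadjusted edgeR p under 0.05 was reached by 28 of the listed genes and by 1865 of all 13594 tested genes.

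Cell type markers moved with the same groups. The summed level of 10 monocyte and macrophage markers was 44.1 to 124 CPM in CTRL, 42.9 to 149 in CTRL+beta-Glucan, 786 to 965 in WSD and 421 to 540 in WSD+beta-Glucan. All 10 rose for WSD against CTRL, and 2 (Trem2 and Gpnmb) fell for WSD+beta-Glucan against WSD. The summed level of 10 hepatocyte markers was 132900 to 169400 CPM in CTRL, 79430 to 92620 in WSD and 92960 to 126800 in WSD+beta-Glucan, with 7 of 10 lower for WSD against CTRL. Stellate cell markers rose in 5 of 6, endothelial in 4 of 6 and cholangiocyte in 3 of 6. Over all tested genes, 26% rose and 27.1% fell for WSD against CTRL. For WSD+beta-Glucan against WSD, 0.0883% rose and 0.302% fell. No marker of these lists was at 0 throughout. By median of the summed level, the macrophage list ranks the groups in the same order as Gdf15 and Atf3. The stellate, endothelial, cholangiocyte and neutrophil lists share this order, so it is not particular to macrophages. Of these lists, only that of macrophages had no overlap between WSD and WSD+beta-Glucan libraries. The hepatocyte, B and plasma cell and exocrine pancreas lists had other orders. The part of cell composition in the levels of Gdf15 and Atf3 was not tested.

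Within groups, the 10 genes varied together only loosely. Of 45 pairs, 37 had a Pearson r above 0 between deviations of log2 CPM from the group means over 19 libraries, with a median of 0.31, and all points share library and depth. The highest was between Xbp1 and Hspa5 (0.78), followed by Ddit3 and Herpud1 (0.66); Gdf15 and Ddit3 had 0.59, and Atf3 and Trib3 had the lowest, -0.48. Most like Gdf15 by this measure were Matk (0.90), Rpl37rt (0.87), Nudt9 (0.86), Adora2a (0.85) and Lsm4 (0.85). Most like Fgf21 were Atf5 (0.87), Cep112 (0.84), Mcrip1 (0.84), Anxa5 (0.82) and Fermt1 (0.82). Both rankings are the top of a search over the 13594 tested genes, members aside, in 19 libraries. High values can come from such a search alone, and the r of the member pairs was not compared with that of other gene pairs.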

How the data were processed

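Per the labels, RNA was extracted from liver with a PureLink kit and made into TruSeq stranded mRNA libraries. Salmon 1.10.1, build GRCm39 and, with no role, DESeq2 1.38.3 are named per the submitters' processing notes; the transcript set is not given in the sources used here. The authors deposited, per transcript and library, estimated counts (expected counts, not scaled between libraries), TPM and, as another unit, the effective length in bases. Of 116546 transcripts, 115977 (99.51%) matched GENCODE M21 (GRCm38) by identifier. Estimated counts were summed to genes and rounded. A second identifier with the symbol Ddit3 had 0 reads and was left out. TPM served to order levels, and the effective lengths served as weights of 1 alternative offset.

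Tests used edgeR 4.0.16 (R 4.3.3): filterByExpr on the 4 groups (13594 genes), TMM, robust quasi-likelihood fit of all 19 libraries, 5 contrasts, Benjamini-Hochberg adjustment within each, threshold 0.05. DESeq2 1.42.0 and limma-voom (limma 3.58.1) were alternatives, and the edgeR step was tested on simulated data. The SE is the log2 fold change divided by the root of F, without sign. It reflects the spread between libraries as estimated in the fit, as well as counting error. Depth was 17253823 to 23450232 reads. Limits taken from depth, as for Gfral, cover counting error only, and reads without molecular identifiers are not independent.

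The 10 genes and the lists were chosen with earlier results of these data known. Named in addition were, per list, the 4 genes past the threshold with the smallest p for WSD against CTRL and for WSD+beta-Glucan against WSD, of which the text quotes a selection, and fixed sensors, receptors and targets. Transcript shares were compared by two-sided exact permutation tests (SciPy 1.17.1). Summed marker lists were those of macrophages, hepatocytes, cholangiocytes, stellate, endothelial, B and plasma cells, neutrophils and exocrine pancreas. Of the latter 3, neutrophil and B and plasma cell lists had 1 higher call each for WSD against CTRL (of 5 and 4 tested) and the pancreas list 1 lower call, of 1 tested. Over all tested genes 26% were higher and 27.1% lower.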

Additional observations from a re-analysis of the deposited data

Results flagged for a closer look

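In 8 of 96 groups of 4 or 5 libraries (24 genes), the highest or lowest library stood far from the others by Dixon's test; chance flags about 1 in 20 groups. Fgf21 was at 33.8 CPM in CTRL replicate 3, where the others ran from 9.81 to 11.5 CPM. Trib3 was at 21.4 CPM in CTRL replicate 1 (others 8.69 to 11.9 CPM) and at 24.8 CPM in WSD+beta-Glucan replicate 3 (others 18.1 to 19.04 CPM). CTRL replicate 1 was also the lowest for Xbp1, at 119 CPM against 142 to 150 CPM, and for Dnajb9, an ER co-chaperone and XBP1 target, at 16.6 CPM against 20.8 to 22.4 CPM. In WSD+beta-Glucan replicate 4, Klb was at 25.8 CPM (others 14.4 to 15.6 CPM) and Ppara at 71.2 CPM (others 41.6 to 45.1 CPM). Atf6 was at 45.1 CPM in WSD replicate 1, below 52.5 to 54.7 CPM in the others.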

How the results depend on the processing

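No paired analysis was possible because the labels give no replicate numbers and name no animal shared between libraries. With scaling by library total alone, an alternative chosen after seeing the data, listed genes gave 97 higher and 12 lower calls for WSD against CTRL. For WSD+beta-Glucan against CTRL+beta-Glucan they gave 55 and 7. Over all 13594 tested genes these calls were 7874 and 617, and 5137 and 385. The latter comparison gave 23 lower calls in a fit of only the groups compared (1330 of all 12877 genes). Without the libraries titled 37, 39 and 40 it gave 21 (1240 of all 13789 genes). For WSD+beta-Glucan against WSD, higher calls went from 0 to 1 with DESeq2 and 1 with limma-voom. Lower calls went from 0 to 3 with DESeq2, 2 with limma-voom, 3 with only the groups compared and 4 with library total. Over all genes, higher calls went from 12 to 94 and 61, and lower calls from 41 to 342, 366, 411 and 283, in the same order. Library total alone changed the sign of 16 named values for WSD against CTRL, those of Atf4 (0.32), Hspa5 (0.24), Dnajb9 (0.19), Ern1 (0.21), Fgfr1 (0.37), Ppp1r15a (0.22), Afg3l2 (0.19), Atf6 (0.36), Canx (0.0373), Eif2ak1 (0.0002), Eif2b5 (0.21), Fgfr4 (0.10), Hsp90ab1 (0.12), Hspa9 (0.0254), Sec62 (0.0496) and Sec63 (0.0452), and of 8 between the beta-glucan groups, those of Atf6 (0.30), Dnajb9 (0.18), Ern1 (0.23), Fgfr1 (0.24), Herpud1 (0.08), Hspa5 (0.21), Ppara (0.08) and Xbp1 (0.17). It also changed that of Atf6 (-0.15) for WSD+beta-Glucan against WSD, and 5 in the comparison of both beta-glucan effects. Leaving out each library in turn gave 35 to 43 higher and 67 to 75 lower calls for WSD against CTRL, 20 to 25 higher and 30 to 45 lower for the beta-glucan groups against each other, and 0 in the other comparisons. Apart from the scaling, whose construction sets the shift, the cause of these changes was not tested. Transcripts of few reads, such as those of Atf3 in CTRL, are limited by depth.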
